A study of Mus musculus with 64 samples.

Results

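The Clk and Tra2 genes are 6 genes of the machinery that controls splicing: the kinases Clk1, Clk2, Clk3 and Clk4 and the splicing regulators Tra2a and Tra2b. Their transcripts were taken from the deposited isoform tables by gene name, which gave 50 transcripts of 112714, from 6 gene names of 46686. The members were selected on measured values, the FPKM of single transcripts of Clk1 and Tra2a, which had stood out among drug-responsive transcripts of these same libraries. The drug values of all 6 genes are therefore given as a description, and where calls of a fit across all transcripts are counted for them, the count repeats the measure that chose the members and is no test of them. Tests of the members are those between the brain regions and between the saline sets, which the choice did not use.

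RNA was sequenced from the nucleus accumbens (NAc) and prefrontal cortex (PFCx) of adult male C57BL/6N mice killed 2 h after a single intraperitoneal injection, in 64 libraries. The drugs were the antidepressants mianserin (20 mg/kg) and venlafaxine (16 mg/kg), the antipsychotics haloperidol (1 mg/kg) and risperidone (0.5 mg/kg), the psychostimulant methamphetamine (2 mg/kg) and the psychotomimetic ketamine (20 mg/kg), each with 4 libraries per region. Saline controls came as 2 sets of 4 libraries per region, saline I and saline II, so that each drug was set against 8 saline libraries of its region. All animals were wild-type and received an injection, haloperidol and risperidone being dissolved in saline acidified with a drop of HCl. The labels do not tell whether NAc and PFCx libraries came from the same mice.

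Clk kinases are dual-specificity kinases of the nucleus that phosphorylate SR proteins, the serine- and arginine-rich factors which define exons, and thereby release them from nuclear speckles for use in splicing. Clk1 and Clk4 transcripts are known to remain in the nucleus with the introns around exon 4 unspliced, and skipping of that exon shifts the reading frame ahead of the kinase domain. Tra2a and Tra2b bind exonic enhancer sequences beside SR proteins, are themselves substrates of Clk kinases, and each carry an ultraconserved extra exon with an early stop codon, whose inclusion lowers the amount of protein made.

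The libraries held 1.52 to 3.26 gigabases of aligned sequence, estimated from coverage, FPKM and transcript length. In NAc, the 16 libraries of saline I, haloperidol, risperidone and methamphetamine (sample set I) listed 85287 to 87827 transcripts above 0, against 107099 to 110556 in the 16 libraries of saline II, mianserin, venlafaxine and ketamine (sample set II). The labels name a set only for saline, and each drug was joined to the saline set with the nearer median of this number in NAc. For the drugs, the gap in NAc is thus the rule that made the sets and not a separate result. All PFCx libraries listed 108556 to 110852, and the sets of the drugs there were carried over from NAc. No member transcript was at 0 in all NAc libraries of set I, whereas 2457 other transcripts were. Ratios of NAc drug to saline FPKM below are therefore also given against the 4 saline libraries to whose set the drug was joined. Ratios in PFCx are to all saline libraries of the region unless stated. The saline sets differed there too, in 2.56% of all transcripts against 1.15% in NAc (limma, adjusted p under 0.05). The region labels were checked against neuronal markers. All 9 medium spiny neuron markers and all 8 cortical projection neuron markers were detected, the first summing to 680.5 FPKM in NAc and 38.2 FPKM in PFCx after saline, the second to 68.7 FPKM in NAc and 248.8 FPKM in PFCx. The first sum varied between PFCx libraries, from 26.3 to 82.9 FPKM after saline. It reached 81.6 FPKM there after risperidone, 64.1 FPKM after ketamine and at most 40.1 FPKM after the other drugs. The part of this spread in the values below was not tested.

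Of the 50 member transcripts, 15 were annotated as protein coding, 22 as retained intron, 8 as targets of nonsense-mediated decay and 5 as processed transcripts. Clk1 (chr1:58410189-58424066, GRCm38) had 13 of them, of which 1 was protein coding and 7 were retained introns. Clk4 (chr11:51261730-51281766) had 14, Clk2 (chr3:89164795-89176921) had 11, Tra2a (chr6:49243924-49264033) had 5, Tra2b (chr16:22244549-22266005) had 6 of the 9 annotated, and Clk3 (chr9:57750711-57765860) was listed by a single coding transcript of the 9 annotated. A mean of at least 0.1 FPKM in either region was reached by 48 of the 50, the exceptions being the Clk2 coding transcript ENSMUST00000121212 and the Clk4 retained intron ENSMUST00000140628.

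The exon 4 sequences of the 4 kinases are shown because retained introns flank this exon in Clk1, Clk2 and Clk4. That of Clk3, which had no retained intron transcript here, is given beside them. Each is written 5′ to 3′ on the gene's own strand from the GRCm38 genome, the exon in capitals and 30 bases of the introns on either side in lower case. They lie at chr1:58420091-58420241 (minus strand) for Clk1, chr11:51273048-51273198 (plus strand) for Clk4, chr3:89169588-89169732 (plus strand) for Clk2 and chr9:57758597-57758753 (minus strand) for Clk3.
Clk1 exon 4: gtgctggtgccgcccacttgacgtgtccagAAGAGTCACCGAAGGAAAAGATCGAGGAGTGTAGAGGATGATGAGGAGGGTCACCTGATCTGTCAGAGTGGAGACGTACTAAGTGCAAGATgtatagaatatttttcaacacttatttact
Clk4 exon 4: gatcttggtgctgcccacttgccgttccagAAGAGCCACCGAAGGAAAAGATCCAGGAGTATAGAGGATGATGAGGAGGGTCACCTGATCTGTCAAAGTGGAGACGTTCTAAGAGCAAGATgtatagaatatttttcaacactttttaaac
Clk2 exon 4: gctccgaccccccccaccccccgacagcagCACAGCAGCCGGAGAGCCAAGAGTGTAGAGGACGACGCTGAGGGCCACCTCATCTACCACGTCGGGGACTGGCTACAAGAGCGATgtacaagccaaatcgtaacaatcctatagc
Clk3 exon 4: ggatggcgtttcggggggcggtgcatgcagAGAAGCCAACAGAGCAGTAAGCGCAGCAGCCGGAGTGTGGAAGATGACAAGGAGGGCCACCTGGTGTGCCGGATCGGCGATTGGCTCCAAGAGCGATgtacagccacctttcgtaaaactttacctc

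The exon was 91 bases long in Clk1 and Clk4, 85 in Clk2 and 97 in Clk3, and each length left a remainder of 1 on division by 3. Clk1 and Clk4 shared 85 of the 91 exon bases and 26 of the first 30 bases of intron 4, but 14 of the last 30 bases of intron 3. Reads from this region could be divided between the paralogs by the estimation of FPKM, and values of Clk1 and Clk4 transcripts that cover it are uncertain to that extent.

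For the Tra2 genes, the extra exon up to its stop codon is shown, with the stop in capitals, together with the coding start of Tra2a, whose exon 1 (capitals) runs into the unspliced intron 1 (lower case) in the retained intron transcript described below. They lie on the minus strand at chr6:49252965-49253108, chr16:22259181-22259261 and chr6:49263778-49263873.
Tra2a extra exon: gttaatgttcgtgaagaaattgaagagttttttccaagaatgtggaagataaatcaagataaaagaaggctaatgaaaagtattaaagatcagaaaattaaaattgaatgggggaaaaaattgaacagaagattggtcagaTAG
Tra2b extra exon: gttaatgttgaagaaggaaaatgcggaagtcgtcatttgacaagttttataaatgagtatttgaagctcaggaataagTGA
Tra2a exon 1 and intron 1: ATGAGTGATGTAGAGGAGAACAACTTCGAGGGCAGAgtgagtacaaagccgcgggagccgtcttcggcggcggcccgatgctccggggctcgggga

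The extra exon of Tra2a is 306 bases long in all and that of Tra2b is 276. The Tra2a transcript that includes it is ENSMUST00000203820 and the Tra2b transcript is ENSMUST00000162413, both annotated as targets of nonsense-mediated decay.

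After saline, Clk1 had the highest summed expression of the family in both regions and Clk3 the lowest. The measure is FPKM, in which fragments are scaled to transcript length and to the mapped fragments of the library, and the transcripts of a gene were summed. In NAc the Clk1 sum was 26.5 ± 1.41 FPKM (SD, n = 8), followed by Clk4 with 17.9 ± 1.64, Tra2b with 11.8 ± 1.12, Tra2a with 9.60 ± 0.903, Clk2 with 6.37 ± 0.879 and Clk3 with 2.65 ± 0.296 FPKM. Of neighbours in this order, only the libraries of Tra2b and Tra2a overlapped. In PFCx the sums were 19.4 ± 1.81 FPKM for Clk1, 15.9 ± 1.65 for Clk4, 11.3 ± 0.658 for Tra2a, 11.3 ± 1.55 for Tra2b, 5.72 ± 0.973 for Clk2 and 2.88 ± 0.305 for Clk3 (SD, n = 8 each). There the libraries of Clk1 and Clk4 overlapped, as did those of Tra2a and Tra2b, and the other neighbours did not.

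**Figure D1:**
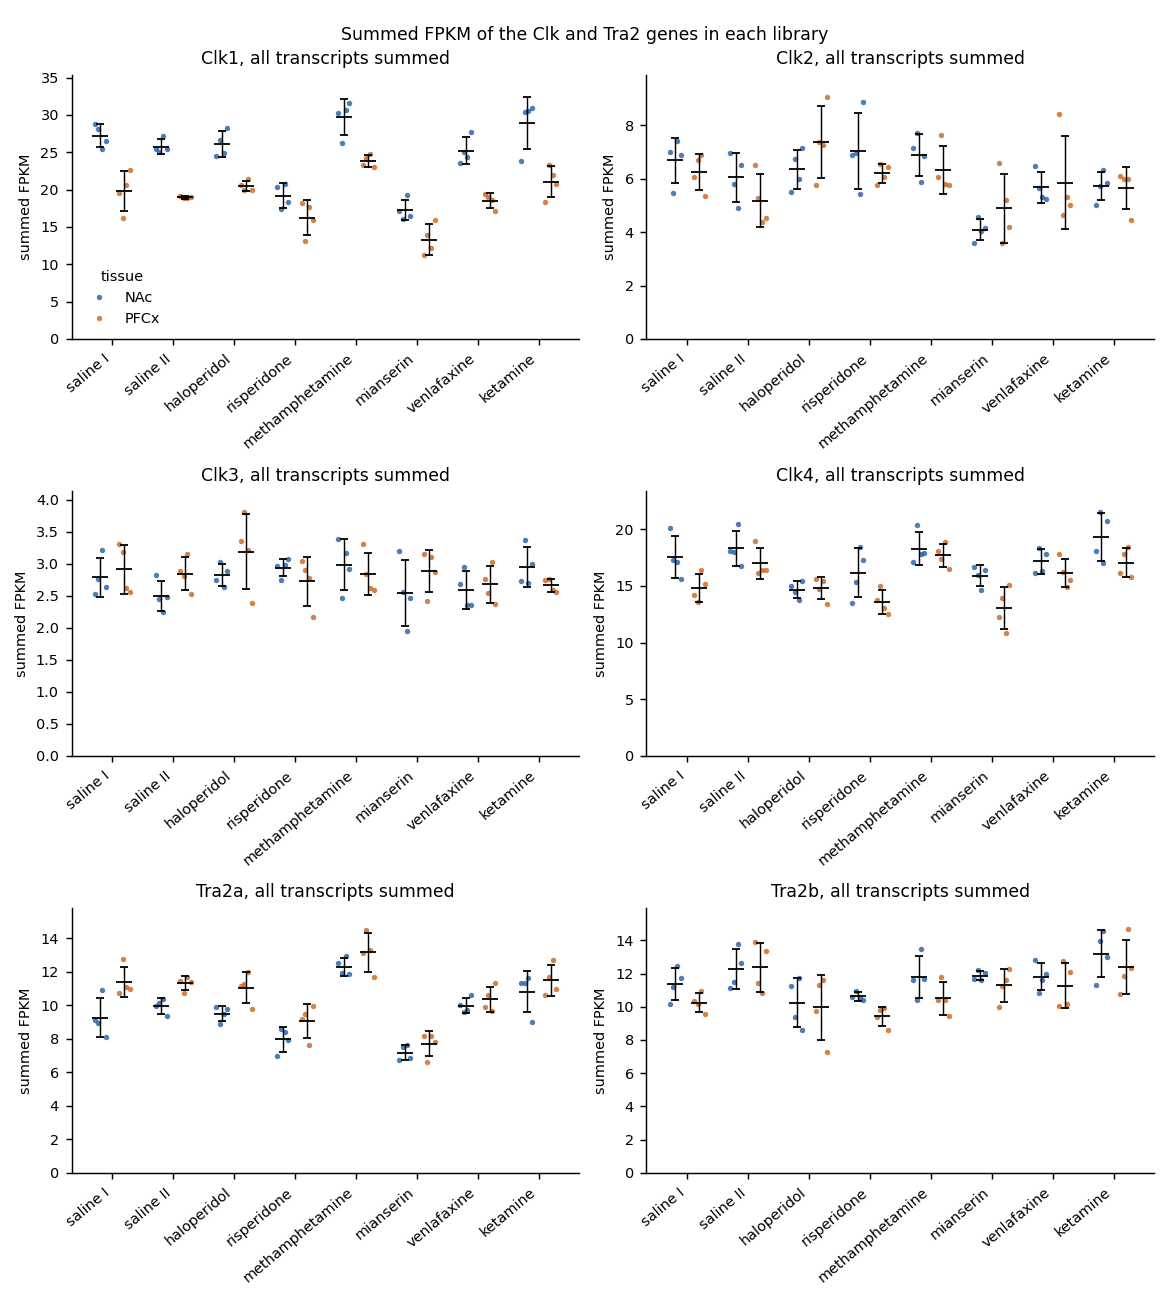
Summed FPKM (y axis, from 0) of the 6 genes in each of the 64 libraries, by group (x axis), with the mean and SD of 4 libraries as black bars, NAc in blue and PFCx in orange. In both regions the 4 mianserin libraries of Clk1 and of Tra2a lie below all 8 saline libraries, while those of Clk3 and Tra2b lie among them.

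Most of the Clk1 signal belonged to transcripts that do not code for the kinase. The coding transcript ENSMUST00000034868 held 4.30% ± 4.52 of the Clk1 sum in NAc and 3.90% ± 4.17 in PFCx after saline (SD, n = 8 each), and retained intron transcripts held 59.2% ± 5.64 and 57.7% ± 4.21. Clk4 was similar in its retained introns, with 63.9% ± 3.73 in NAc and 55.4% ± 7.44 in PFCx, but its coding transcripts held 31.6% ± 3.90 and 38.4% ± 5.38. Most of that was ENSMUST00000109111, at 19.0% ± 3.31 and 23.7% ± 7.67, a transcript of 9 exons that starts downstream of exon 4. The Clk4 coding transcript with all 13 exons, ENSMUST00000093132, held 5.46% ± 4.47 and 5.76% ± 4.11, close to that of Clk1. Retained introns held 46.8% ± 8.30 of Clk2 in NAc and 49.5% ± 7.19 in PFCx. These shares follow the annotated type, and several transcripts of that type keep no whole intron of the coding transcript. Of those in Clk1, only ENSMUST00000129577, ENSMUST00000135380 and ENSMUST00000156931 keep any. The first held 21.8% ± 2.10 of the sum in NAc and 20.8% ± 3.35 in PFCx. Of those in Clk4, only ENSMUST00000148467, at 13.8% ± 1.72 and 15.0% ± 1.17, and ENSMUST00000140628, which missed the filter, do.

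The Tra2 genes had larger coding shares. Coding transcripts held 39.9% ± 9.08 of Tra2a in NAc and 48.1% ± 6.74 in PFCx, and 60.8% ± 4.10 and 62.6% ± 6.25 of Tra2b. The transcript with the extra exon held 22.1% ± 6.30 of the Tra2a sum in NAc and 18.3% ± 6.83 in PFCx, and 3.94% ± 3.25 and 3.49% ± 2.71 of the Tra2b sum (SD, n = 8 each). These divisions rest on estimates of unequal precision. Over the 64 libraries, the 95% bounds in the tables lay, as a median, 13.9% of the value away from it for the Clk1 retained intron ENSMUST00000129577 and 14.9% for the Tra2a retained intron ENSMUST00000204013, against 42% for the coding Clk1 transcript, which was under 0.01 FPKM in 22 of the 64 libraries.

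**Figure D2:**
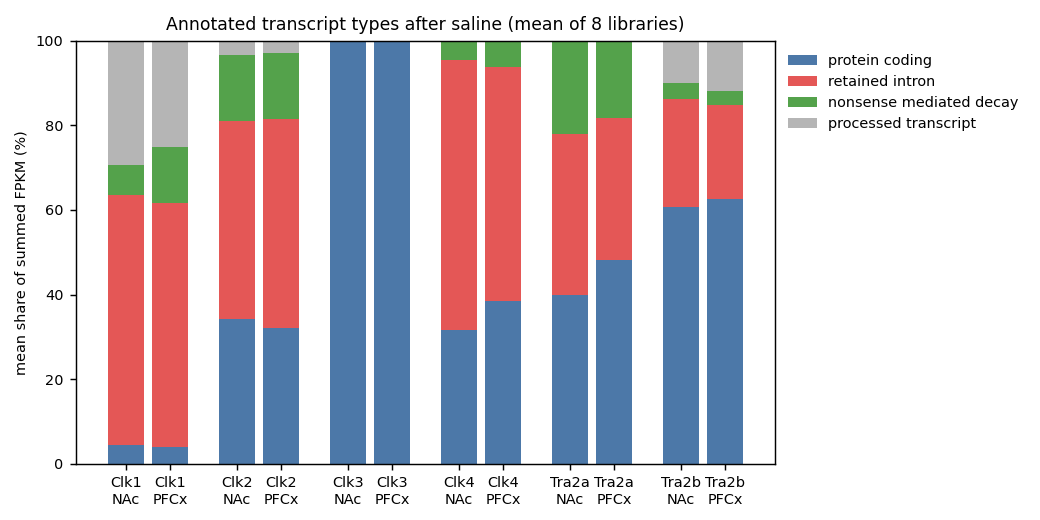
Mean share of each gene's summed FPKM (y axis, percent) held by the annotated transcript types in the 8 saline libraries of NAc and of PFCx (x axis, by gene). Retained intron transcripts form the largest segment of Clk1, Clk2 and Clk4 and coding transcripts the largest of Clk3, Tra2a and Tra2b.

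Next, the regions were compared after saline, a contrast that the choice of the family did not use. The Clk1 sum was lower in PFCx, with 16.2, 19.1 and 22.7 FPKM as lowest, median and highest value, than in NAc, with 25.0, 26.0 and 28.8 FPKM. No library of one region overlapped the other. The difference was −0.44 on the scale of log2(FPKM + 1), with SE 0.054 (limma, Benjamini-Hochberg adjusted p = 1.11e-05). The Tra2a sum was higher in PFCx, with lowest, median and highest values of 10.7, 11.3 and 12.7 FPKM against 8.09, 9.63 and 10.9 FPKM in NAc, so that the ranges overlapped slightly. Its difference was 0.22 with SE 0.054 (limma, adjusted p = 0.00458), and the adjusted p was 0.063 when saline II alone was used. The direction of both held when libraries were rescaled to a common 75th percentile, at −0.26 for Clk1 (limma, adjusted p = 0.0233) and 0.39 for Tra2a (limma, adjusted p = 0.00288). That percentile was taken over the transcripts above 0 in a library, whose number was lower in NAc sample set I. The rescaling moved the median difference over all gene sums from 0.10 to 0.13, further from 0.

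The Clk4 sum was at 15.9 ± 1.65 FPKM in PFCx and 17.9 ± 1.64 in NAc (SD, n = 8 each), with a difference of −0.16 (limma, adjusted p = 0.041) that became 0.01 under the rescaling (limma, adjusted p = 0.932). It also missed the threshold in 10 of the 16 fits that left out 1 saline library. The differences of Clk2 (−0.14, limma, adjusted p = 0.204) and Tra2b (−0.06, limma, adjusted p = 0.427) did not pass and became 0.02 and 0.10 under the rescaling. That of Clk3 (0.09, limma, adjusted p = 0.214) passed under the rescaling (0.22, limma, adjusted p = 0.0106). Thus 3 of 6 gene sums passed, 1 higher and 2 lower in PFCx, where 39.9% of all gene sums passed, 31.5% higher and 8.42% lower. Under the rescaling 2 members were higher and 1 lower, against 38.1% and 4.3% of all gene sums (42.4% in either direction).

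Among single transcripts, 6 of the 48 passed and all were lower in PFCx, against 17% of all transcripts in either direction and 5.06% lower. The retained intron ENSMUST00000129577 of Clk1 (chr1:58416143-58424066), which keeps introns 3, 4 and 6, had 4.99, 5.61 and 6.62 FPKM as lowest, median and highest value in NAc and 2.88, 4.16 and 4.53 FPKM in PFCx. The regions did not overlap, and the difference was −0.44 with SE 0.066 (limma, adjusted p = 0.000256). It passed in every alternative tried. The other Clk1 transcripts that passed were the retained introns ENSMUST00000131051 (−0.79, limma, adjusted p = 0.00353) and ENSMUST00000123580 (−0.27, limma, adjusted p = 0.0422) and the processed transcripts ENSMUST00000139787 (−0.67, limma, adjusted p = 0.0169) and ENSMUST00000141570 (−0.43, limma, adjusted p = 0.0408). The only one outside Clk1 was the Clk4 retained intron ENSMUST00000146776 (−0.77, limma, adjusted p = 0.048). Under the rescaling 3 of 48 passed, 2 lower (both retained introns of Clk1) and 1 higher (Clk3), against 2.95% lower and 15.8% higher over all transcripts (18.7% in either direction).

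No isoform share passed in this contrast. Of the 49 member shares, 0 passed with limma and 6 had an unadjusted p under 0.05, the lowest adjusted p being 0.153, while 1.35% of all shares passed. ENSMUST00000129577 held 21.8% ± 2.10 of the Clk1 sum in NAc and 20.8% ± 3.35 in PFCx (SD, n = 8 each).

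Cell markers differed between the regions as well. The 5 oligodendrocyte markers summed to 512 to 703 FPKM in NAc and 131 to 184 FPKM in PFCx after saline, in addition to the neuronal lists given above. The 5 astrocyte markers summed to 75.9 to 90.3 FPKM in NAc and 76.0 to 99.6 FPKM in PFCx, the 5 microglial markers to 22.8 to 28.8 and 19.3 to 26.7 FPKM, and the 5 endothelial markers to 22.7 to 29.5 and 23.0 to 29.5 FPKM. No marker had a group mean of 0. The part of cell composition in the Clk1 and Tra2a differences was not tested, and in bulk tissue fewer cells of a type and less RNA per cell cannot be told apart.

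**Figure D3:**
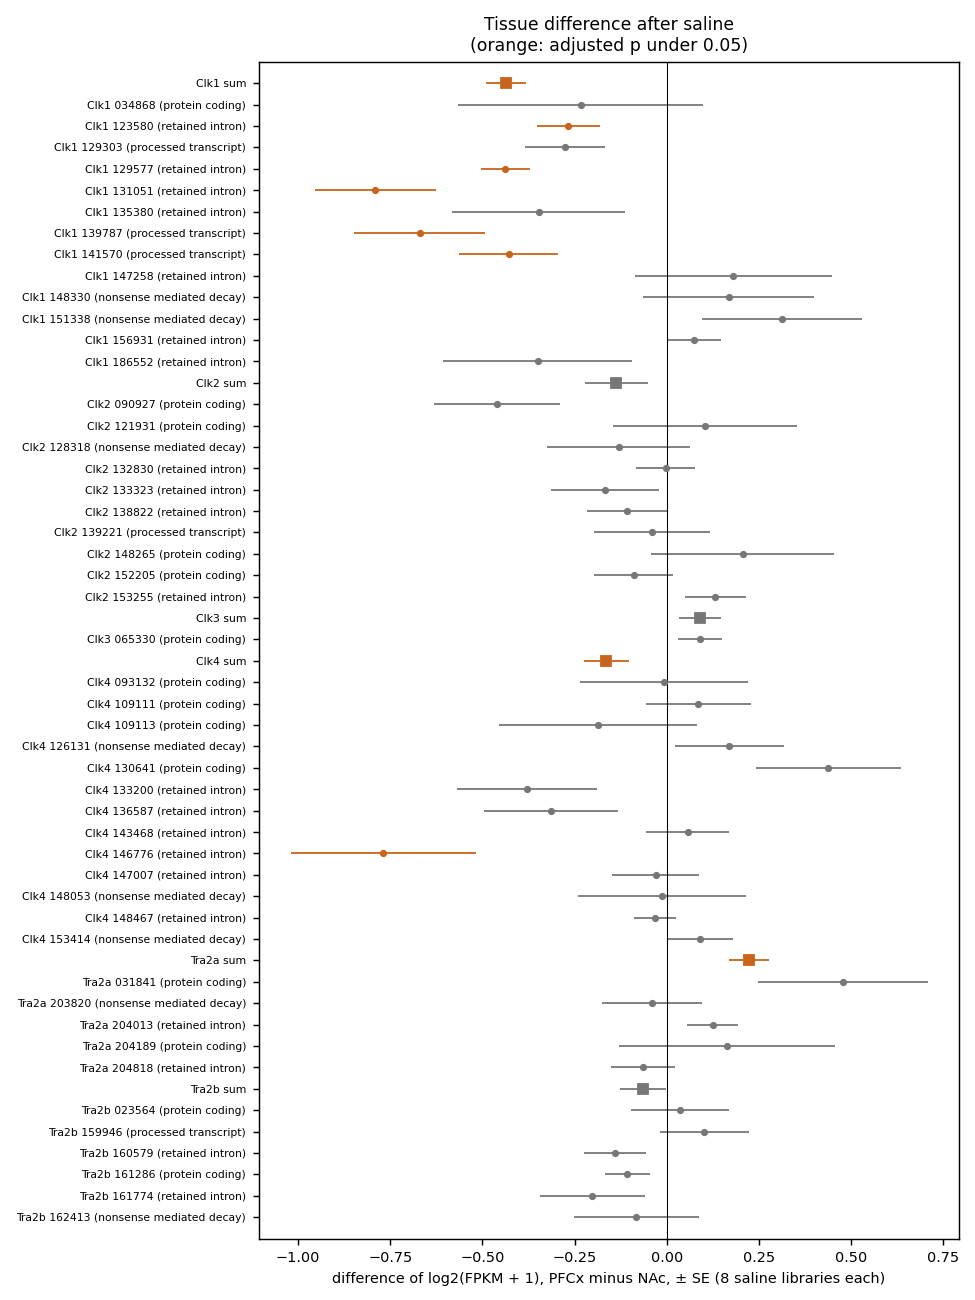
Difference between PFCx and NAc after saline (x axis, log2 of FPKM + 1, 8 libraries per region) for the 6 gene sums (squares) and the 48 transcripts past the filter (circles, last 6 digits of the transcript identifier and annotated type), with the standard error as a line. Orange marks an adjusted p under 0.05, reached by 3 sums and 6 transcripts, of which 5 transcripts belong to Clk1, and the Clk4, Clk2 and Tra2b sums turn sign under the rescaling.

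The saline sets of a region were compared next. With limma, 0 of 48 transcripts passed in NAc and 0 of 48 in PFCx, where 1.15% and 2.56% of all transcripts passed, and 9 in each region had an unadjusted p under 0.05. The Clk1 transcript ENSMUST00000148330, a target of nonsense-mediated decay that skips exon 4, was at 0.608 ± 0.680 FPKM in saline I and 2.56 ± 0.689 in saline II of NAc (SD, n = 4 each; limma, adjusted p = 0.104), and at 0.994 ± 1.07 and 2.76 ± 0.657 in PFCx (SD, n = 4 each; limma, adjusted p = 0.202). The saline sets differ in sample set, and in NAc also in the number of transcripts listed, which cannot be told apart from each other.

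In the drug groups, members lay below all saline libraries most often after mianserin and, for fewer members, after risperidone. Mianserin blocks serotonin, histamine and adrenergic receptors, and risperidone blocks dopamine and serotonin receptors. After mianserin, all 4 libraries lay below all 8 saline libraries for 5 of 48 transcripts in NAc and 4 of 48 in PFCx, where 0.514% and 0.688% of all transcripts did. After risperidone this held for 2 transcripts in NAc and 1 in PFCx (0.58% and 0.521% of all transcripts), and after venlafaxine for 1 in NAc (0.325%) and 0 in PFCx (0.343%). It held for 0 transcripts after haloperidol (0.52% in NAc, 0.489% in PFCx), methamphetamine (0.394%, 0.343%) and ketamine (0.309%, 0.41%). Since these contrasts chose the family, the counts describe the members and nothing is read from them. Drug differences were also compared between the regions. Of 324 pairs of a drug and a member sum or transcript, 0 passed with limma, and 16 had an unadjusted p under 0.05. The lowest adjusted p was 0.236, and for no drug did more than 115 of all transcripts or gene sums pass. Overlap with saline in 1 region alone, as given below, therefore shows no difference between the regions.

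Clk1, the kinase with the highest expression, had sums of 16.1, 16.5, 17.2 and 19.2 FPKM in the 4 NAc libraries after mianserin, against 25.0, 26.0 and 28.8 FPKM as lowest, median and highest of the 8 saline libraries. All 4 lay below saline, with a mean 0.651 of the saline mean and 0.670 of that of saline II alone. After risperidone the NAc sums were 17.4, 18.3, 20.4 and 20.8 FPKM, also below all saline libraries, with a ratio of 0.725, and of 0.706 to saline I alone. In PFCx the sums after mianserin were 11.2, 12.1, 13.9 and 15.9 FPKM, below the saline range of 16.2 to 22.7 FPKM (median 19.1), with a ratio of 0.687. After risperidone they were 13.1, 16, 17.7 and 18.2 FPKM, which overlapped saline. After methamphetamine, a releaser of dopamine, the PFCx sums were 23.0, 23.3, 24.2 and 24.8 FPKM, above all saline libraries by a ratio of 1.23. In NAc they were 26.2, 30.3, 30.6 and 31.6 FPKM, of which 3 lay above the saline range. Ketamine gave a like picture in NAc, with 3 sums between 30.4 and 30.9 FPKM, above that range, and replicate 1 at 23.8 FPKM, below it.

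The retained intron ENSMUST00000129577, the most abundant Clk1 transcript, followed the sum. In NAc it was at 2.87, 2.96, 3.38 and 3.99 FPKM after mianserin and at 4.11, 4.38, 4.57 and 4.60 FPKM after risperidone, against 4.99, 5.61 and 6.62 FPKM as lowest, median and highest after saline. Neither drug group overlapped saline, and the ratios were 0.574 and 0.768 (0.566 and 0.780 to the saline set of the drug). In PFCx it was at 1.43, 2.43, 2.49 and 2.67 FPKM after mianserin, below the saline range of 2.88 to 4.53 FPKM (median 4.16). The ratio there was 0.564 to all saline libraries and 0.502 to saline II, whose 4 libraries lay between 4.46 and 4.53 FPKM. Its share of the Clk1 sum overlapped saline with every drug in both regions, at 19.2% ± 2.74 in NAc and 17.1% ± 4.28 in PFCx after mianserin (SD, n = 4 each) against 21.8% ± 2.10 and 20.8% ± 3.35 after saline (SD, n = 8 each).

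Other Clk1 transcripts had shares that did not follow the sum. The processed transcript ENSMUST00000139787, at the 3′ end of the gene, was at 0.529, 0.870, 0.969 and 1.33 FPKM in NAc after mianserin and at 1.05, 1.09, 1.60 and 1.99 FPKM after risperidone, against 2.17, 3.05 and 3.65 FPKM as lowest, median and highest after saline. Both groups lay below saline, with ratios of 0.307 and 0.476 (0.322 and 0.454 to the saline set of the drug), and the 95% bounds of this transcript lay, as a median, 52.4% of the value away from it. The retained intron ENSMUST00000123580 overlapped saline after mianserin, with 3.24 ± 0.544 FPKM in NAc (n = 4) against 3.12 ± 0.514 after saline (n = 8) and 2.59 ± 0.394 in PFCx (n = 4) against 2.44 ± 0.527 (n = 8). Its share of the Clk1 sum was then 15.7, 18.4, 20.4 and 20.5% in NAc and 17.8, 18.6, 20.6 and 20.8% in PFCx. Both groups lay above their saline ranges of 9.20 to 15.2% (median 11.6) and 9.20 to 16.7% (median 12.6). The coding transcript ENSMUST00000034868 ranged from 0.000188 to 3.59 FPKM after saline in NAc and overlapped saline with every drug.

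**Figure D4:**
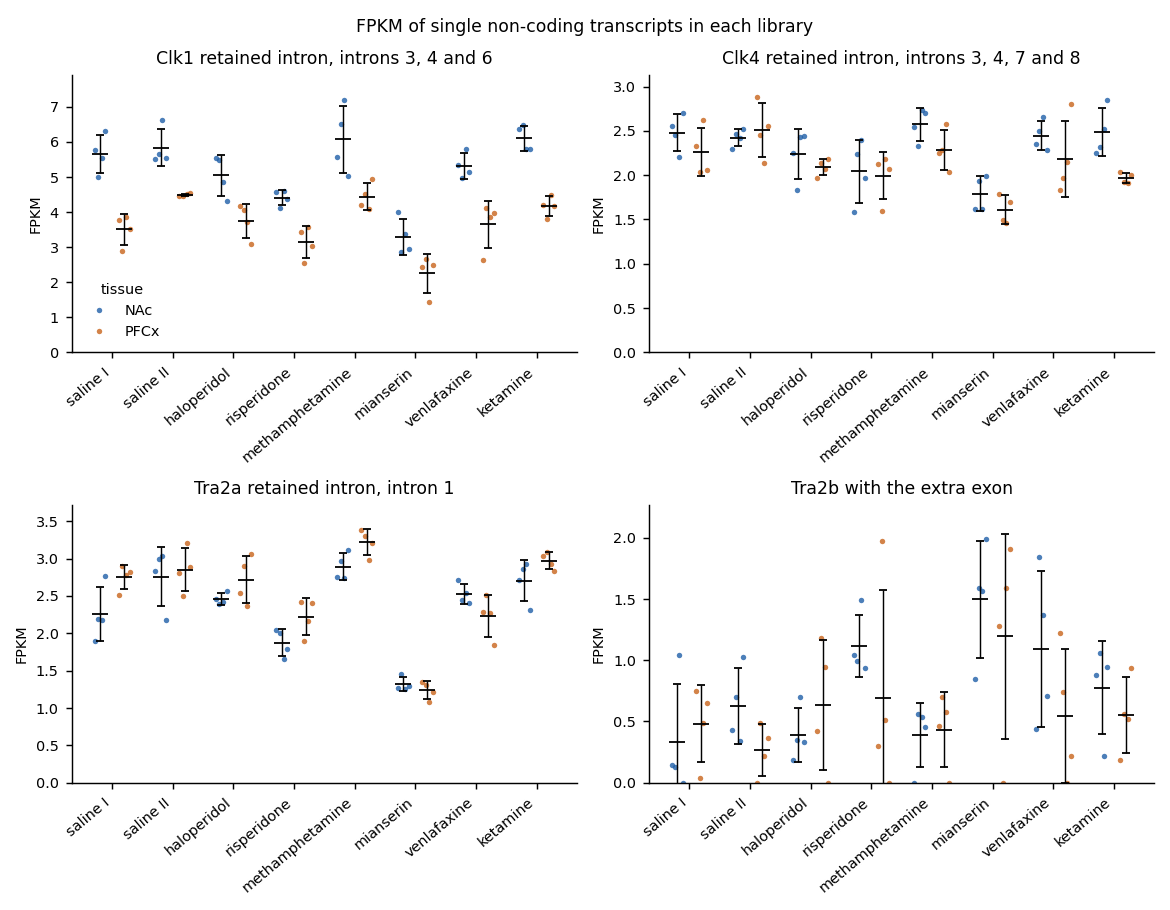
FPKM (y axis, from 0) of 3 retained intron transcripts (Clk1 ENSMUST00000129577, Clk4 ENSMUST00000148467, Tra2a ENSMUST00000204013) and of the Tra2b transcript with the extra exon (ENSMUST00000162413) in each library, by group (x axis), with mean and SD of 4 libraries in black, bars ending at 0 where the SD exceeds the mean. The mianserin libraries of the 3 retained introns lie below all 8 saline libraries in NAc (blue) and in PFCx (orange), and those of the Tra2b transcript overlap saline.

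Clk4, the closest paralog of Clk1, had a smaller contrast in its sum. After mianserin the sums were 14.6, 16, 16.4 and 16.7 FPKM in NAc, against a saline range of 15.6 to 20.5 FPKM (median 17.6), and 10.9, 12.3, 14.0 and 15.1 FPKM in PFCx, against 13.6 to 19.0 FPKM (median 16.3). Both overlapped the 8 saline libraries, although all 4 lay below those of saline II in each region. After haloperidol, a dopamine receptor blocker, the NAc sums were 13.7, 14.5, 15.0 and 15.4 FPKM, below all saline libraries, with a ratio of 0.818, and of 0.836 to saline I alone.

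The Clk4 retained intron ENSMUST00000148467 (chr11:51271999-51277209), which keeps introns 3, 4, 7 and 8, was at 1.62, 1.62, 1.94 and 1.99 FPKM in NAc after mianserin, against 2.2, 2.46 and 2.70 FPKM as lowest, median and highest after saline. In PFCx it was at 1.46, 1.5, 1.70 and 1.79 FPKM, against 2.04, 2.39 and 2.89 FPKM. Neither group overlapped saline, with ratios of 0.731 in NAc, where it was 0.740 to saline II alone, and 0.676 in PFCx. The Clk4 coding transcript ENSMUST00000109111 was at 1.15, 1.37, 1.59 and 2.15 FPKM in PFCx after mianserin, below the saline range of 2.32 to 5.55 FPKM (median 3.50), with a ratio of 0.417. In NAc the same transcript was at 0.732, 1.94, 2.82 and 4.34 FPKM, which overlapped the saline range of 2.10 to 4.47 FPKM. The retained introns ENSMUST00000136587 (2.81 ± 1.07 FPKM in NAc after saline, n = 8) and ENSMUST00000133200 (2.19 ± 0.739 FPKM, n = 8) varied more between saline libraries and overlapped them with every drug.

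Clk2 lay below saline with mianserin in NAc alone, as a sum over many low transcripts. The sums were 3.61, 4.04, 4.17 and 4.57 FPKM against 4.90, 6.69 and 7.39 FPKM as lowest, median and highest after saline, with a ratio of 0.643, and of 0.677 to saline II. In PFCx they were 3.61, 4.18, 5.21 and 6.57 FPKM and overlapped the saline range of 4.37 to 6.90 FPKM. Among its transcripts, 1 lay below saline, the coding ENSMUST00000090927 after venlafaxine in NAc, at a level near 0 that saline also approached, with 0.000131 FPKM as its lowest saline value. The more abundant Clk2 transcripts all overlapped saline with every drug, among them the retained intron ENSMUST00000138822, which keeps introns 3 and 4 (1.05 ± 0.317 FPKM in NAc and 0.895 ± 0.250 in PFCx after saline, n = 8 each), and ENSMUST00000128318, a target of nonsense-mediated decay that skips exon 4 (1.04 ± 0.839 and 0.841 ± 0.587 FPKM, n = 8 each). The retained introns ENSMUST00000133323 (0.654 FPKM in NAc after saline) and ENSMUST00000153255 (0.663 FPKM) and the coding ENSMUST00000148265 (0.833 FPKM) completed those with at least 10% of the gene over all libraries of a region. Just under that share lay the retained intron ENSMUST00000132830, with 0.594 FPKM in NAc and 0.583 FPKM in PFCx after saline. Clk3, through its coding transcript ENSMUST00000065330, overlapped saline with every drug in both regions, its group means ranging from 2.54 to 2.98 FPKM in NAc and from 2.66 to 3.19 FPKM in PFCx.

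Tra2a was the other gene whose sum lay below saline with mianserin in both regions. In NAc the sums were 6.70, 6.82, 7.48 and 7.60 FPKM against 8.09, 9.63 and 10.9 FPKM as lowest, median and highest after saline, a ratio of 0.745, and of 0.719 to saline II alone. In PFCx they were 6.61, 7.81, 8.16 and 8.18 FPKM against 10.7, 11.3 and 12.7 FPKM, a ratio of 0.678. After risperidone the PFCx sums of 7.60, 9.20, 9.47 and 9.94 FPKM also lay below saline, with a ratio of 0.798, while those in NAc, at 6.94, 7.92, 8.40 and 8.59 FPKM, overlapped it. After methamphetamine the NAc sums of 11.8, 11.9, 12.5 and 12.9 FPKM lay above all saline libraries, with a ratio of 1.28 and of 1.33 to saline I alone, and those in PFCx, at 11.6, 13.1, 13.3 and 14.5 FPKM, overlapped saline. In NAc after ketamine, replicate 4 was at 8.96 FPKM, and the other replicates lay between 11.3 and 11.6 FPKM, also above the saline range.

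The Tra2a retained intron ENSMUST00000204013 (chr6:49260243-49264030), which holds exon 1 and a stretch of intron 1 as shown above, also lay below saline in both regions. After mianserin it was at 1.25, 1.27, 1.29 and 1.45 FPKM in NAc, against 1.89, 2.48 and 3.03 FPKM as lowest, median and highest after saline. In PFCx it was at 1.08, 1.22, 1.31 and 1.35 FPKM, against 2.50, 2.82 and 3.21 FPKM. Neither group overlapped saline, with ratios of 0.525 in NAc, where it was 0.477 to saline II alone, and 0.442 in PFCx. After risperidone the PFCx values of 1.89, 2.17, 2.41 and 2.43 FPKM lay just below saline, and the NAc values of 1.66, 1.79, 2.00 and 2.05 FPKM overlapped it. Unlike that of the Clk1 retained intron, its share of the gene sum also lay below saline after mianserin, at 16.5, 18.9, 19.0 and 19.4% in NAc, where saline ranged from 20.04 to 34.2% (median 26.5), and at 13.2, 15.6, 16.5 and 19.9% in PFCx, where saline ranged from 22.8 to 27.5% (median 24.8). The Tra2a transcript with the extra exon, ENSMUST00000203820, overlapped saline, with means of 1.75 FPKM in NAc and 1.82 FPKM in PFCx after mianserin against 2.13 and 2.06 FPKM after saline. The coding transcripts ENSMUST00000031841 (3.08 ± 1.61 FPKM in NAc and 4.44 ± 1.41 in PFCx after saline, n = 8 each) and ENSMUST00000204189 (0.776 ± 0.702 and 1.02 ± 0.973 FPKM) and the shorter retained intron ENSMUST00000204818 (1.10 ± 0.236 and 1.01 ± 0.237 FPKM) overlapped saline with every drug.

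Tra2b differed from Tra2a in that its sum overlapped saline with every drug. After mianserin it was 11.6, 11.7, 12 and 12.2 FPKM in NAc, within the saline range of 10.1 to 13.8 FPKM, and 9.96, 11.3, 11.6 and 12.3 FPKM in PFCx, within 9.54 to 13.9 FPKM. Its retained intron ENSMUST00000160579 (chr16:22258064-22265918) was at 1.43, 1.53, 1.72 and 1.93 FPKM in NAc after mianserin, below the lowest saline value of 1.94 FPKM, with a ratio of 0.730 and of 0.722 to saline II alone, and in PFCx at 1.22, 1.36, 1.53 and 1.82 FPKM, which overlapped saline. The transcript with the extra exon, ENSMUST00000162413, was at 0.844, 1.56, 1.59 and 1.99 FPKM in NAc after mianserin and at 0.936, 0.991, 1.05 and 1.49 FPKM after risperidone, while saline had a median of 0.385 and a highest value of 1.04 FPKM. Thus 3 of the 4 mianserin and 2 of the 4 risperidone libraries lay above saline. Its share of the Tra2b sum after risperidone in NAc, 8.98, 9.03, 9.89 and 14.2%, lay above the highest saline share of 8.37%. In PFCx it was near 0 in 1 mianserin library and at 1.28, 1.59 and 1.91 FPKM in the other 3, above the highest saline value of 0.75 FPKM. The 95% bounds of this transcript lay, as a median, 58.5% of the value away from it. The coding transcripts ENSMUST00000023564 (3.63 ± 0.502 FPKM in NAc and 3.86 ± 1.28 in PFCx after saline, n = 8 each) and ENSMUST00000161286 (3.53 ± 0.306 and 3.21 ± 0.386 FPKM), which make up most of the Tra2b sum, and the processed ENSMUST00000159946 (1.18 ± 0.376 and 1.37 ± 0.620 FPKM) overlapped saline with every drug.

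For completeness, the calls of the fits across all transcripts are counted for the members, as a description only, because the same contrast chose the family. The pairwise limma fit at an adjusted p under 0.05 called, for mianserin, 4 of 48 member transcripts lower in NAc (the Clk1 transcripts ENSMUST00000129577 and ENSMUST00000139787, Clk4 ENSMUST00000148467 and Tra2a ENSMUST00000204013), where 0.167% of all transcripts were called lower. In PFCx 3 were called lower, the same without ENSMUST00000139787, where 0.174% of all were. The F test across all drugs at an adjusted p under 0.0001 called 2 of 48 in NAc (ENSMUST00000129577 and ENSMUST00000204013), against 0.12% of all transcripts, and 1 in PFCx (ENSMUST00000204013), against 0.0336%. Of gene sums, mianserin called Clk1, Clk2 and Tra2a lower in NAc (0.411% of all gene sums) and Clk1 and Tra2a in PFCx (0.33%), risperidone Clk1 in NAc (0.284%) and Tra2a in PFCx (0.227%), and methamphetamine called Tra2a higher in NAc (0.162%). Nothing is read from these calls. The rescaling to a common 75th percentile brought the NAc difference after mianserin from −0.59 to −0.32 for the Clk1 sum and from −0.38 to −0.12 for the Tra2a sum, on the scale of log2(FPKM + 1), but with saline II alone as the control the rescaled differences were −0.54 and −0.41. The median over all gene sums went from 0.04 to 0.12 under this rescaling, and was 0.01 when the rescaled values were set against saline II alone.

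By annotated type, the members did not share 1 direction with mianserin. Mean levels were below the saline mean for 31 of 48 transcripts in NAc, with 10 of 14 coding, 14 of 21 retained intron, 4 of 8 nonsense-mediated decay and 3 of 5 processed transcripts. In PFCx they were below for 32, with 9 of 14, 14 of 21, 4 of 8 and 5 of 5. Of all transcripts, 43.5% were below in NAc and 56.5% in PFCx. The median difference of the 48 was −0.11 in NAc and −0.10 in PFCx, beside 0.02 and −0.02 over all transcripts. After risperidone 35 of 48 were below the saline mean in NAc and 32 in PFCx, beside 59.5% and 50.3% of all transcripts. The medians were −0.13 and −0.14, beside −0.03 and −0.00077 over all transcripts. After haloperidol 34 and 23 of 48 were below, beside 59.5% and 51.9% of all transcripts, with medians of −0.08 and 0.02. After methamphetamine 20 and 22 were below, beside 58.9% and 52.9%, with medians of 0.06 and 0.04. After venlafaxine, the other antidepressant, 28 and 28 were below, beside 42.9% and 56.1%, with medians of −0.02 and −0.05. After ketamine 18 and 24 were below, beside 39.7% and 58.2%, with medians of 0.08 and −0.01. Over all transcripts the medians were 0.03 and −0.02 after venlafaxine and 0.04 and −0.02 after ketamine. Drugs of a region share their saline libraries, so these medians are not independent of each other.

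**Figure D5:**
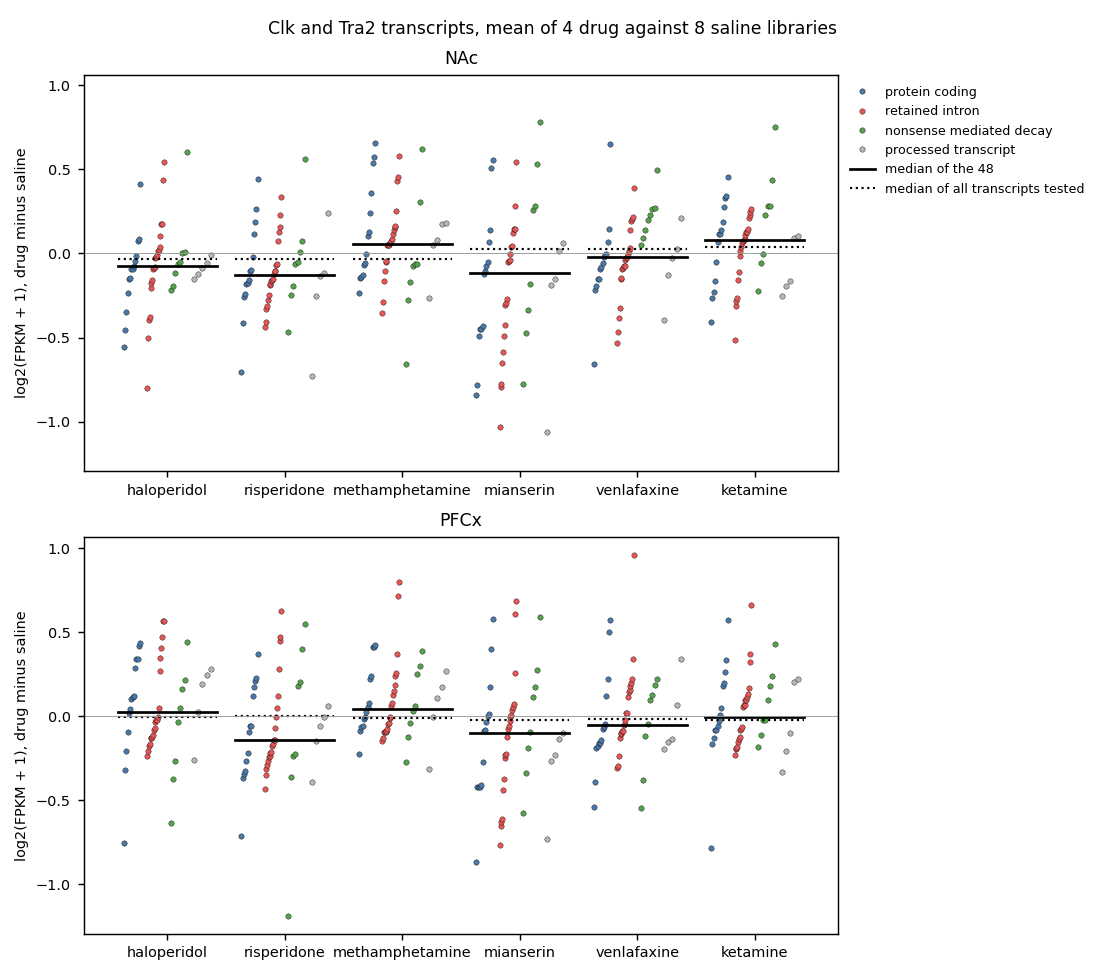
Difference of mean log2(FPKM + 1) between 4 drug and 8 saline libraries (y axis) for each of the 48 member transcripts, by drug (x axis) and coloured by annotated type, in NAc (top) and PFCx (bottom). The solid line is the median of the 48 and the dotted line that of all transcripts tested, which lie at −0.11 and 0.02 after mianserin in NAc.

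Cell markers were summed in the same libraries. Oligodendrocyte markers summed to 539 to 566 FPKM in NAc after mianserin, within the saline range of 512 to 703 FPKM, and to 167 to 192 FPKM in PFCx, where saline ranged from 131 to 184 FPKM. Medium spiny neuron markers in NAc were at 533 to 710 FPKM, against 567 to 766 FPKM after saline. Astrocyte, microglial and endothelial markers after mianserin lay at 79.9 to 91.6, 21.8 to 28.0 and 23.9 to 25.2 FPKM in NAc and at 79.3 to 91.3, 17.8 to 21.7 and 21.0 to 25.4 FPKM in PFCx. After risperidone the endothelial markers lay at 19.8 to 24 FPKM in NAc, where saline ranged from 22.7 to 29.5 FPKM, and the oligodendrocyte markers at 594 to 690.1 FPKM. Their part in the drug values was not tested.

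Among 14497 genes with a mean of at least 1 FPKM in both regions, those most like Clk1 over the 64 libraries were mainly non-coding. As a description, with no test since libraries share drug and depth, Pearson's r of log2(FPKM + 1), centred within region and sample set, with the Clk1 sum was 0.861 for Gm26945 (chr12:109640341-109642351), 0.759 for Gm38372 and 0.75 for RP23-83P5.5. The last, at chr6:49254851-49256462, lies within the span of Tra2a, so that its reads may in part be those of Tra2a introns. Gm26945 was also the gene most like Tra2a (r = 0.812), followed by Kcnq1ot1, the long antisense RNA of an imprinted domain (r = 0.756), and by Clk1 itself (r = 0.746). Clk1 came second for Clk4 (r = 0.650), after Gm26803 (r = 0.687). For Clk2, Clk3 and Tra2b the closest genes were Ctxn1 (r = 0.575), Ipo5 (r = 0.600) and Psma1 (r = 0.711), and no other member was among the 3 closest.

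Finally, 39 genes of a splicing list were examined as gene sums: 12 kinases and phosphatases of SR proteins or relatives of these, 11 SR proteins and 16 SR-related or partner proteins. Between regions after saline, 10 were higher and 12 lower in PFCx, against 31.5% and 8.42% of all gene sums, and under the rescaling 16 were higher and 4 lower. The genes named here for this contrast were chosen after their values were seen. The kinases and phosphatases had 6 higher and 3 lower, among them Dyrk2 (1.18, limma, adjusted p = 2.77e-09) and the phosphatase subunits Ppp1cc (−0.86, limma, adjusted p = 1.14e-07) and Ppp1ca (−0.72, limma, adjusted p = 3.2e-06). Of the SR proteins, 5 of 11 were lower (Srsf1, Srsf2, Srsf4, Srsf5 and Srsf6) and 1 higher (Srsf12), but none of the 5 passed under the rescaling, where Srsf5 turned to 0.0047. Partners had 3 higher, with Khdrbs3 at 1.45 (limma, adjusted p = 4.6e-11), and 4 lower, with Rbmx at −0.76 (limma, adjusted p = 3.61e-06).

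Among these 39 genes, the drug call that held in every alternative was that of Dyrk3, a kinase that dissolves nuclear condensates, in PFCx. It was at 1.68 ± 0.396 FPKM after saline (n = 8), ranging from 0.949 to 2.23, and at 3.59 ± 0.543 FPKM after risperidone (n = 4), ranging from 3.19 to 4.37, a difference of 0.78 (limma, adjusted p = 0.00126). After mianserin it was at 3.47 ± 0.597 FPKM (n = 4), from 2.86 to 4.03, a difference of 0.74 (limma, adjusted p = 0.00138). Neither group overlapped saline. It was the only one of the 39 that passed with any drug in PFCx, where 0.284% of all gene sums passed as higher with risperidone (0.511% in either direction) and 0.346% with mianserin (0.676%). With haloperidol, methamphetamine, venlafaxine and ketamine 0 passed in PFCx with limma, and 10, 7, 3 and 1 of the 39 had an unadjusted p under 0.05. The genes next in order of the F test in PFCx were Khdrbs3, Srrm2, Srsf2, Srsf3 and Srsf11, with adjusted p from 0.0679 to 0.0942 (limma).

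In NAc the calls among the 39 depended on the controls. After mianserin the SR proteins Srsf2 (12.7 ± 1.98 FPKM, n = 4, against 16.9 ± 1.24, n = 8, a difference of −0.39, limma, adjusted p = 0.00854) and Srsf6 (11.7 ± 0.825 FPKM, n = 4, against 14.4 ± 0.375, n = 8, −0.28, limma, adjusted p = 0.0138) passed as lower, against 0.411% of all gene sums called lower and 1.85% in either direction. When the drug was set against its own saline set, saline II, with saline I kept in the fit, the adjusted p was 0.173 and 0.0812 (limma). After venlafaxine Ppp1ca and U2af2 passed as lower, and after ketamine Srpk2 and Khdrbs1 passed as higher and Ppp1ca as lower. With venlafaxine 0.727% of all gene sums were called lower and 1.82% in either direction, and with ketamine 1.43% higher, 0.535% lower and 1.97% in either direction. None of these 5 calls passed against the own saline set, where the adjusted p ranged from 0.085 to 0.798 (limma). Under the rescaling against all saline libraries, mianserin, venlafaxine and ketamine had 12, 13 and 12 of the 39 higher and 0 lower. With the rescaling and the own saline set they had 0 higher and 1, 0 and 0 lower. After haloperidol, risperidone and methamphetamine 0 of the 39 passed with limma at the adjusted threshold and 4, 3 and 6 had an unadjusted p under 0.05, where 0.722%, 0.727% and 0.195% of all gene sums passed.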

How the data were processed

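Total RNA depleted of ribosomal RNA was sequenced on an Ion Torrent instrument in 64 libraries. Per the study's methods and the submitters' processing notes, the authors aligned reads with TopHat2 2.0.1 and Tmap and estimated transcripts with Cufflinks 2.2.1 on mm10 (GRCm38). Each deposited table gives FPKM, its 95% bounds and coverage for every transcript of 1 library, without pooling; FPKM was scaled by the authors to length and mapped reads. The deposited coverage signal is estimated reads per base and served only for the estimate of depth, 1.52 to 3.26 gigabases per library (median 2.39). Read counts were not used here, so no count test was run, and how multi-mapped reads were treated is not given in the sources used here.

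The members and gene lists were chosen with earlier results of these data known. Rows were taken by gene name and summed per gene, and shares were percentages of that sum. Values were tested as log2(FPKM + 1) with limma 3.58.1 (R 4.3.3) over all transcripts or gene sums with a mean of at least 0.1 FPKM in either region, 86331 and 36989, with Benjamini-Hochberg adjustment over all of them and a threshold of 0.05. A fold change on this scale understates the change of low transcripts. The region contrast used the 16 saline libraries with saline set as a term. Drug fits used the 32 libraries of a region, with all 8 saline libraries as control, and the F test a threshold of 0.0001. Named were transcripts with at least 10% of their gene or past a test, the 3 genes most like each sum by r, and up to 6 genes of the splicing list per region by the F test. The labels do not state separate animals per library, so p-values measure the spread between these samples, which may be technical. On simulated data with 200 transcripts changed by 1.5 on the log2 scale in the region contrast, 176 were recovered with 5 other calls. The noise was normal, and the changed transcripts had a mean log2(FPKM + 1) of at least 1. Recovery of smaller differences, as those of the members were, or of lower transcripts was not simulated. Alternatives were another pseudocount (0.1), a stricter or no filter, and rescaling to a common 75th percentile of the values above 0. Others were the own saline set, single saline sets, a replicate block and leaving out each library. Exon sequences were read from the GRCm38 genome and its annotation. Tables and plots were made with Python 3.11.15, pandas 2.3.3 and matplotlib 3.10.9.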

Additional observations from a re-analysis of the deposited data

Results flagged for a closer look

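Among 224 groups of 4 libraries of 14 sums and transcripts, 10 held a library whose gap to the nearest of the other 3 passed Dixon's 95% critical value, as chance does in about 1 group of 20. In NAc after ketamine, replicate 1 had a Clk1 sum of 23.8 FPKM, where the other 3 lay between 30.4 and 30.9, and 0.850 FPKM of the Clk1 transcript ENSMUST00000139787, where the others lay between 3.00 and 3.11. Replicate 4 of that group had a Tra2a sum of 8.96 FPKM against 11.3 to 11.6 in the others. Replicate 3 of NAc saline II was high for the Clk1 retained intron ENSMUST00000129577 (6.62 FPKM, others 5.52 to 5.67) and the Tra2b retained intron ENSMUST00000160579 (3.04 FPKM, others 1.97 to 2.15), and replicate 3 of NAc saline I for the Tra2b transcript ENSMUST00000162413 (1.04 FPKM, others at most 0.147). In NAc after risperidone, replicate 3 had 3.52 FPKM of the Clk4 coding transcript ENSMUST00000109111 (others 2.87 to 2.98).

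In PFCx, replicate 1 of saline II had a Clk4 sum of 19.0 FPKM, where the others lay between 16.2 and 16.4. Replicate 4 after ketamine had a Clk2 sum of 4.47 FPKM (others 6.0 to 6.09), and replicate 3 after venlafaxine had 2.80 FPKM of the Tra2a coding transcript ENSMUST00000031841 (others 4.01 to 4.20). The cause of these values was not tested.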

How the results depend on the processing

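Between regions, 6 member transcripts passed, and 3 did with a pseudocount of 0.1, 3 after rescaling to a common 75th percentile, 3 with a replicate block and 2 with saline I alone. Leaving out 1 library gave 3 to 7, the 3 arising without NAc saline I replicate 1 or 2, NAc saline II replicate 2, PFCx saline I replicate 2 or 3, or PFCx saline II replicate 3. Of gene sums 3 passed, 1 with saline II alone and 2 to 3 without 1 library, and the Clk4 sum turned from −0.16 to 0.0089 under the rescaling. Shares stayed at 0, and saline sets at 0 to 1 in each region, the 1 arising without NAc saline II replicate 1 or PFCx saline I replicate 3. The cause of these changes was not tested, apart from the fewer libraries used in some.

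For the drug calls, which only describe the members since the same contrast chose them, the F test in NAc called 2 transcripts, 0 with a pseudocount of 0.1, 0 after rescaling, 1 with a replicate block, 1 with rescaling and the own saline set (chosen after seeing the data) and 0 to 2 without 1 library, 0 without mianserin replicate 3 or 4 and 1 without mianserin replicate 1 or 2, risperidone replicate 2 or 4, methamphetamine replicate 2, or ketamine replicate 1 or 2. In PFCx it called 1 throughout. Pairs of transcript and drug went from 4 in NAc to 2 with the replicate block, 7 with saline I alone and 3 to 5 without 1 library, and from 3 in PFCx to 13 with saline II alone and 1 to 4 without 1 library (1 without mianserin replicate 3). Gene sums went from 5 in NAc to 9 after rescaling and 4 to 7 without 1 library, and from 3 in PFCx to 7 with saline II alone and 2 to 4 without 1 library. Over all features the counts moved more: the F test called 104 transcripts in NAc (53 to 1379 over alternatives) and 29 in PFCx (10 to 597), pairs 1002 (593 to 23037) and 556 (316 to 14972), and drug gene sums 2694 (653 to 33175) and 637 (426 to 13429).

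Replicate numbers were not used as pairs, since the labels give them no meaning and not every same-numbered pair correlated above 0.1. Deviations of same-numbered libraries were nevertheless more alike on average than those of other numbers, with a mean r of 0.112 against −0.0372 in NAc set I, 0.0527 against −0.0176 in NAc set II, 0.209 against −0.0671 in PFCx set I and 0.0950 against −0.0311 in PFCx set II. Saline libraries of NAc matched best with their own number in PFCx in 0 of 4 and 1 of 4. A replicate block with 4 levels (chosen after seeing the data) gave 1 transcript by the F test in NAc.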
